A study of Mus musculus with 18 samples.

Results

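Transcript levels in the mouse T cell hybridoma line E2-10HA carrying an shRNA (a short hairpin RNA) against L3MBTL3 were compared with those in the same line carrying a scramble hairpin. Every gene that reached a normalized value of 10 in 3 or more of the 6 libraries was taken, giving 11586 of the 24391 genes in the table. The 6 libraries, 3 per group, belong to a series of 18. A hybridoma is a T cell fused to a lymphoma cell so that it grows without end. Both groups carried the lentiviral vector pLKO.1 puro and were selected with puromycin, so that vector and drug were shared and the hairpin was the labelled difference. A single hairpin against L3MBTL3 was used, and the labels do not say whether a pool or a clone of cells was grown. Ribosome-depleted total RNA was sequenced, and 4882485 to 6129134 reads per library were recovered from the deposited values.

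L3MBTL3 is a chromatin protein with MBT domains, folds that bind lysines carrying methyl groups, and it is known as a partner of RBPJ. RBPJ is the DNA-binding factor of the Notch pathway: it recruits corepressors when Notch is silent and is turned into an activator by the cleaved receptor. The genes described here lie mostly outside that pathway, in the programmes by which a growing T cell divides, makes amino acids and proteins, reacts to stimuli and displays its surface receptors.

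The level of the targeted transcript, L3mbtl3, differed little. In replicates 1, 2 and 3 its normalized values were 467, 447 and 352 with scramble, and those of the libraries labelled with the hairpin were 394, 371 and 370. Within the pairs of equal replicate number the log2 difference was -0.24, -0.27 and 0.07, so the hairpin library was lower in 2 pairs and slightly higher in the replicate 3 pair. The log2 fold change was -0.15 (SE 0.107), with an adjusted p of 0.402 (limma, Benjamini-Hochberg over all genes tested) and of 0.203 once the replicate number entered the model as a block, called the paired fit from here on. The library labelled scramble replicate 3 lay below all 3 hairpin libraries (352 against 370 to 394), unlike the other scramble libraries. Whether its label is right was not tested. Without scramble replicate 3, the log2 fold change was -0.27 (limma, adjusted p = 0.0273). In the paired fit without the replicate 3 pair it was -0.26 (limma, adjusted p = 0.00111). Rbpj stood at 1743, 1613 and 2160 with scramble and 1493, 1620 and 1714 with the hairpin (adjusted p = 0.312, and 0.0613 in the paired fit). Scramble and hairpin mean what the labels say in all that follows, and every direction is that of the labels.

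Scramble replicate 3 stood apart in other respects too. On the first principal component, which held 62.1% of the variance, it scored -41.5, against -1.43 and -3.64 for the other scramble libraries and 4.83 to 23.4 for the hairpin libraries. It was the lowest or the highest of the 6 libraries in 70% of tested genes, against 17.5% to 42.4% for the others. It was also the shallowest library. Results are therefore given pair by pair, and the list counts are also given without this library. Its part in the differences within the replicate 3 pair was not tested, beyond those counts.

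Of the 11586 genes, 256 rose (2.21%) and 129 fell (1.11%) at an adjusted p under 0.05 in the unpaired limma test, and 1566 (13.5%) and 1009 (8.71%) in the paired fit, which held all 385 unpaired calls. The changes were small: the median size of a paired call was 0.34 on the log2 scale, and 68.5% of the paired calls lay under 0.5. Only 159 paired calls rose and 20 fell by 2-fold or more. In the pairs themselves, 161 genes were at least 2-fold higher and 62 at least 2-fold lower in replicate 1, 155 and 73 in replicate 2, and 558 and 57 in replicate 3. The SD of the within-pair log2 difference over genes was 0.32, 0.33 and 0.46. Across genes, which are not independent replicates, the differences of the 3 pairs correlated at r = 0.59 (pairs 1 and 2), 0.61 (pairs 1 and 3) and 0.55 (pairs 2 and 3), as the plot of one pair against another shows. In all 3 pairs alike, 3410 genes were higher (29.4%) and 3338 lower (28.8%). The groups did not overlap for 2097 higher (18.1%) and 1985 lower genes (17.1%).

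**Figure D1:**
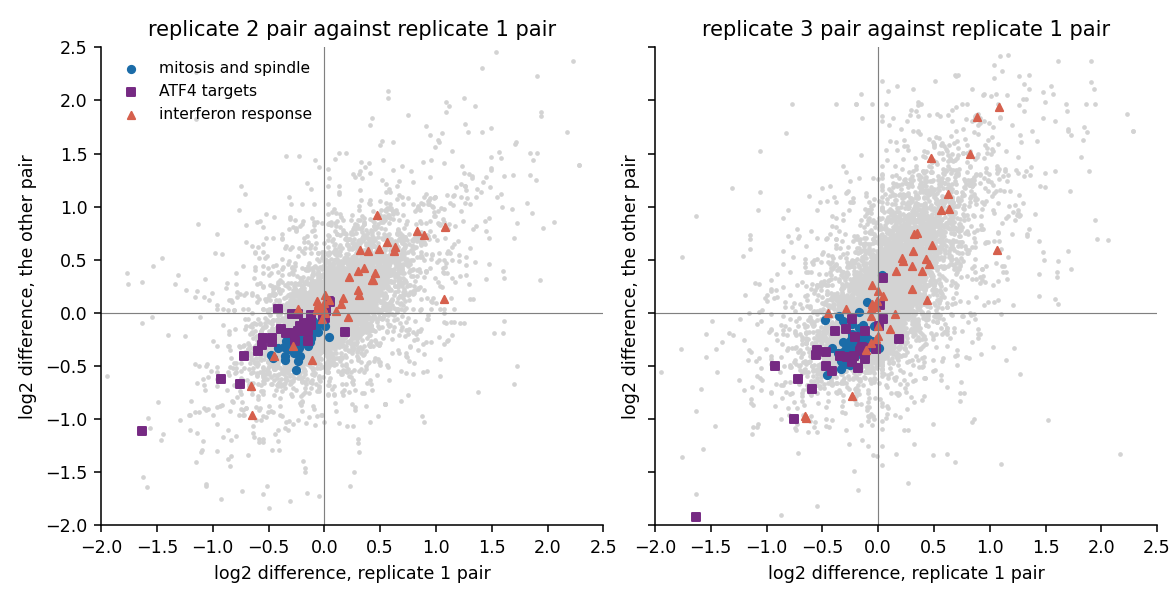
Each point is a tested gene, placed by its log2(value + 1) difference, hairpin minus scramble, in the replicate 1 pair (x axis) and in the replicate 2 or 3 pair (y axis, left and right); members of the mitosis, ATF4 target and interferon lists are coloured, and 19 genes lie beyond the axes. Most mitosis and ATF4 points sit in the lower left of both panels, while interferon points reach the upper right, and the spread is wider for the replicate 3 pair (SD 0.46 against 0.33 for replicate 2).

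When pairing is left out, the number of calls varied with the libraries used. With all 6 libraries, 2949 genes had an unadjusted p under 0.05 (limma). Leaving out a library also lowers the power of the test, so a drop in calls does not measure that library's part. Without hairpin replicate 1, hairpin replicate 2 or scramble replicate 2, unpaired limma called 0 genes, with 1673, 1891 and 2907 genes at an unadjusted p under 0.05, and without hairpin replicate 3 it called 2 up and 3 down. Without scramble replicate 1 it called 235 up and 97 down, and without scramble replicate 3, 646 and 383. In the paired fit, leaving out the replicate 1, 2 or 3 pair gave 1102 up and 433 down, 1505 and 803, or 1713 and 1458.

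Among lists with at least 10 tested members, cell division genes had the largest share of members lower in every pair (93.75%). Of 64 genes for mitosis and the spindle, all of which were tested, 60 were lower in every pair and 0 higher in every pair. In the unpaired test 13 fell, in the paired fit 54 fell, and 0 rose in either. The median log2 difference was -0.21, -0.24 and -0.31 in the 3 pairs, against 0.00 over all genes in each. Without scramble replicate 3 all 64 had a lower mean, 25 fell in the unpaired test and the median was -0.20. With all libraries the log2 fold change of 1 member, Mybl2, was above 0 (0.06).

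Cdc20, the activator of the complex that starts chromosome separation, stood at 632, 702 and 778 with scramble and 458, 524 and 519 with the hairpin. The groups did not overlap, and the log2 fold change was -0.49 (SE 0.0884, limma adjusted p = 0.0373). Ect2, the exchange factor that sets up the furrow between daughter cells, stood at 1011, 1060 and 1094 against 786, 847 and 842 (log2 -0.35). The motor proteins of the spindle Kif20b and Kif4 fell by 0.38 and 0.35 on the log2 scale, with every hairpin library below every scramble library. Foxm1, a transcription factor that drives genes of this phase, stood at 697, 776 and 745 against 523, 615 and 593 (log2 -0.36, limma adjusted p = 0.0488); it and the other list members named without a call or in passing were chosen after their values were seen.

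Not every gene of division followed. The 4 members that were not lower in all pairs were Kif14, Ube2s, Ccnf and Mybl2. Mybl2, which pairs with a complex that switches on mitotic genes, stood at 536, 603 and 420 with scramble and 551, 515 and 539 with the hairpin, higher in pairs 1 and 3 and lower in pair 2. Mki67, the gene of the proliferation marker Ki-67, stood at 5080, 5437 and 5904 against 4955, 5080 and 5427 (log2 -0.09), with an adjusted p of 0.539 and of 0.354 in the paired fit.

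The promoters of Cdc20 and Ect2 are shown because mitotic genes moved together and are known for a shared promoter layout, a CHR element (TTTGAA) and CCAAT boxes. Each is the 250 bases before the start of the gene in RefSeq, on the minus strand of the build GRCm38.p6, at chr4:118437344-118437593 for Cdc20 and chr3:27153879-27154128 for Ect2, with these motifs in capitals.
Cdc20: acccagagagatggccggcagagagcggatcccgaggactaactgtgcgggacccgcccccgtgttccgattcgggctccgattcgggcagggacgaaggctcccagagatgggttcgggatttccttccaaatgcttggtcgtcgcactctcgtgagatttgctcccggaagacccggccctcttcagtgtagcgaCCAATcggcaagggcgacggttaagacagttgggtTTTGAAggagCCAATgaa
Ect2: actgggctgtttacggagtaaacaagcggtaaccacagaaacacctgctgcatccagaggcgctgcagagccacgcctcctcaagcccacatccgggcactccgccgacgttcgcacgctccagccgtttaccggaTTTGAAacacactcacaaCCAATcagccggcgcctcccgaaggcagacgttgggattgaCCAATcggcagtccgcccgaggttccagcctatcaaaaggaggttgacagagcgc
Counting both strands, TTTGAA lay in 20 of the 54 mitosis promoters that could be matched (37%) and in 16.3% of all 27025 promoters of the table, and CCAAT in 38 (70.4%) and 34.5%. These shares were not particular to mitosis. Among replication histone genes TTTGAA lay in 44.1% and CCAAT in 81.4%, and CCAAT lay in 80% of unfolded protein response promoters. The other lists whose shares were read had less of each motif than mitosis. The motifs do not overlap each other. A match is a description of the letters only.

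DNA replication genes were lower too, but unevenly between pairs. Of 62 tested, 6 fell in the unpaired test, 20 in the paired fit, and 0 rose. Their median difference was -0.12 in pair 1, -0.28 in pair 2 and -0.07 in pair 3, so here the replicate 2 pair differed most. Rad51ap1, which acts in DNA repair, stood at 371, 438 and 456 with scramble and 255, 283.6 and 313 with the hairpin (log2 -0.57, limma adjusted p = 0.0385). E2f2, a transcription factor of the G1/S transition, stood at 626, 654 and 666 against 453, 481 and 534, without overlap. Rrm2, a subunit of the enzyme that makes deoxynucleotides, and Mcm3, part of the replicative helicase, fell by 0.34 and 0.30 on the log2 scale. E2f1 alone was higher in every pair, at 263, 309 and 190.5 against 297, 335 and 298 (paired adjusted p = 0.0508). Without scramble replicate 3, 14 replication genes fell, and in the paired fit without the replicate 3 pair, 34.

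**Figure D2:**
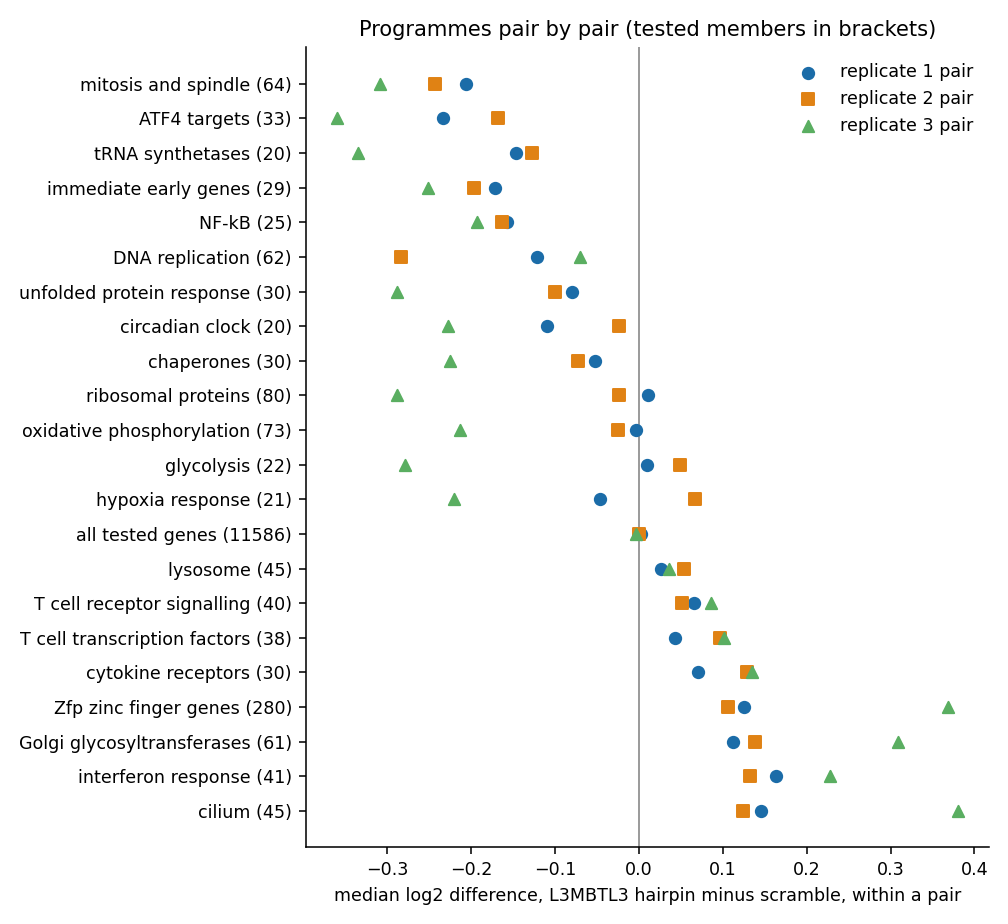
Median log2(value + 1) difference, hairpin minus scramble, of each gene list within the replicate 1, 2 and 3 pairs (circle, square, triangle), with the number of tested members in brackets. All tested genes sit at 0.00 in each pair; mitosis lies at -0.21, -0.24 and -0.31, whereas ribosomal protein genes lie at 0.01, -0.02 and -0.29.

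Among 52 lists with at least 10 tested members, the median was lower in all 3 pairs for 27 and higher in all 3 for 15. Over all tested genes, 13.5% rose and 8.71% fell in the paired fit, the shares to set beside each list's count. In 44 of the 52 the median farthest from 0 was that of the replicate 3 pair, and in 36 scramble replicate 3 was the library farthest from the mean of all 6.

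Genes of amino acid supply were lower with the hairpin. ATF4 is a transcription factor made when amino acids run short or proteins misfold, and it turns on amino acid transport and synthesis. Of 35 listed targets of it, serine synthesis and one-carbon genes included, 33 were tested. In the unpaired test 5 fell, in the paired fit 22 fell, and 0 rose in either. The median difference was -0.23, -0.17 and -0.36 in pairs 1, 2 and 3, and without scramble replicate 3, 9 fell with a median of -0.16.

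Cth, which makes cysteine, had the largest decrease of the list, at 160, 149 and 257 with scramble and 51, 69 and 67 with the hairpin. The groups were far apart, with pair differences of -1.63, -1.11 and -1.92. The transporters of basic amino acids Slc7a1 and Slc7a3 and the transporter of neutral amino acids Slc1a4 also fell. Slc7a3 stood at 486, 470 and 639 against 287, 295 and 320 (log2 -0.81, limma adjusted p = 0.0314). For Slc7a1 the values were 1712, 1616 and 1760 against 1240, 1375 and 1365 (log2 -0.35). The folate enzyme gene Mthfd2 was the other of the 5 unpaired calls (log2 -0.31).

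Some members passed only with pairing. Trib3, a pseudokinase that feeds back on ATF4, stood at 931, 814 and 1227 with scramble and 565, 614 and 795 with the hairpin (paired limma adjusted p = 0.000253, unpaired 0.0817). Chac1, which degrades glutathione, stood at 385, 332 and 562 against 202, 215 and 397, so that replicate 3 was high in both groups and the groups overlapped (paired 0.000452, unpaired 0.167). Atf4 itself stood at 901, 935 and 1253 against 829, 864 and 927 (log2 -0.22, adjusted p = 0.272, paired 0.0321). Slc1a5 and Stc2 were the 2 members higher in every pair, with log2 fold changes of 0.04 and 0.16 that did not pass in either fit.

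The promoters of Asns, which makes asparagine, and Chac1 are shown for the ATF4 list, with TGATGNAA, the core of the element bound by ATF4 with a C/EBP partner, and CCAAT in capitals on either strand. Asns stood at 1047, 1055 and 1308 with scramble and 890, 939 and 948 with the hairpin (log2 -0.29, paired limma adjusted p = 0.00719, unpaired 0.0968). Both are 250 bases before the RefSeq start in GRCm38.p6, at chr6:7693210-7693459 on the minus strand for Asns and chr2:119350992-119351241 on the plus strand for Chac1, where the ATF4 motif reads on the other strand.
Asns: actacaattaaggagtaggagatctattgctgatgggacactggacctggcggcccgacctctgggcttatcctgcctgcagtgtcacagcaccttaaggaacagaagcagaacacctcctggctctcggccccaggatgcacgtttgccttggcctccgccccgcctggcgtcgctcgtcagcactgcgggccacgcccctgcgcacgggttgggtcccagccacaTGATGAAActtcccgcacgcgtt
Chac1: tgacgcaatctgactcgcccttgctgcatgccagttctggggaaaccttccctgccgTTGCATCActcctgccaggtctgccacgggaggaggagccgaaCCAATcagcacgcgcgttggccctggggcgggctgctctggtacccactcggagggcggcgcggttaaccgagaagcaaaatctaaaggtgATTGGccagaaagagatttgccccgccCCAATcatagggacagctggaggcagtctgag
TGATGNAA, on both strands, lay in 5 of 27 matched promoters of the list (18.5%). Over all promoters of the table, untested genes included, the share was 3.53%.

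The enzymes that load amino acids onto tRNA moved the same way. Of 20 cytosolic aminoacyl-tRNA synthetases, 17 were lower in every pair and 14 fell in the paired fit, while 0 passed the unpaired test. The medians were -0.15, -0.13 and -0.34 in the 3 pairs. Iars, for isoleucine, stood at 1292, 1250 and 1485 with scramble and 1014, 1104 and 1149 with the hairpin, without overlap (paired limma adjusted p = 0.00317, unpaired 0.0707). Aars, Mars and Cars, for alanine, methionine and cysteine, had log2 fold changes of -0.27, -0.28 and -0.28 and passed in the paired fit too. Without scramble replicate 3, 6 synthetases fell in the unpaired test.

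Genes of the unfolded protein response, by which the endoplasmic reticulum answers misfolded proteins, were lower in every pair for 25 of 30 tested members, with medians of -0.08, -0.10 and -0.29. None passed the unpaired limma test (0 of 30) and 7 fell in the paired fit. When scramble replicate 3 was left out, 3 fell in the unpaired test and the median went from -0.16 to -0.08. Ern1, the sensor IRE1, stood at 939, 929 and 1249 with scramble and 748, 751 and 855 with the hairpin (log2 -0.39, paired limma adjusted p = 0.00115), and Herpud1, which helps remove misfolded proteins, at 905, 864 and 1119 against 706, 757 and 796. Hspa5, the main chaperone of that compartment, did not pass in either fit (log2 -0.18, paired 0.0556).

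Immediate early genes, which cells switch on within minutes of a stimulus, differed between replicates as well as between hairpins. Of 29 tested, 14 fell and 2 rose in the paired fit, whereas 0 fell and 1 rose in the unpaired test, with or without scramble replicate 3. The medians were -0.17, -0.20 and -0.25. Egr1, a zinc finger factor of this class, stood at 172, 184 and 339 with scramble and 96, 79 and 216 with the hairpin. Replicate 3 was the highest in both groups and the groups overlapped, while the log2 difference was -0.83, -1.20 and -0.65 within the pairs (paired limma adjusted p = 0.000705, unpaired 0.19). Fos, a subunit of AP-1, stood at 255, 270 and 425 against 170, 116 and 290, with the same layout. Nr4a1, an orphan receptor induced by T cell receptor signals, stood at 845, 831 and 1164 against 621, 576 and 977 (paired 0.00114), and Maff and Klf6 passed in that fit as well.

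Btg2, an early response gene that slows proliferation, went the other way. It stood at 747, 697 and 810 with scramble and 1066, 942 and 1113 with the hairpin, without overlap (log2 0.47, limma adjusted p = 0.0348). It and Fosl2 (log2 0.29, paired 0.00378) were the 2 immediate early genes that rose.

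Of 25 tested NF-kB genes, 2 fell in the unpaired test, and 10 fell and 2 rose in the paired fit, with medians of -0.16, -0.16 and -0.19. With scramble replicate 3 left out, 3 fell in the unpaired test. The lymphotoxin gene Lta stood at 133, 131 and 88 with scramble and 62, 53 and 64 with the hairpin. Tnf stood at 320, 356 and 315 against 260, 252 and 226, and neither cytokine gene overlapped between groups. Birc2, which restrains cell death below TNF receptors, and Relb, an NF-kB subunit, fell in the paired fit (log2 -0.30 and -0.25), and Nfkbie, an inhibitor of NF-kB, rose there (log2 0.62, paired limma adjusted p = 0.00788).

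**Figure D3:**
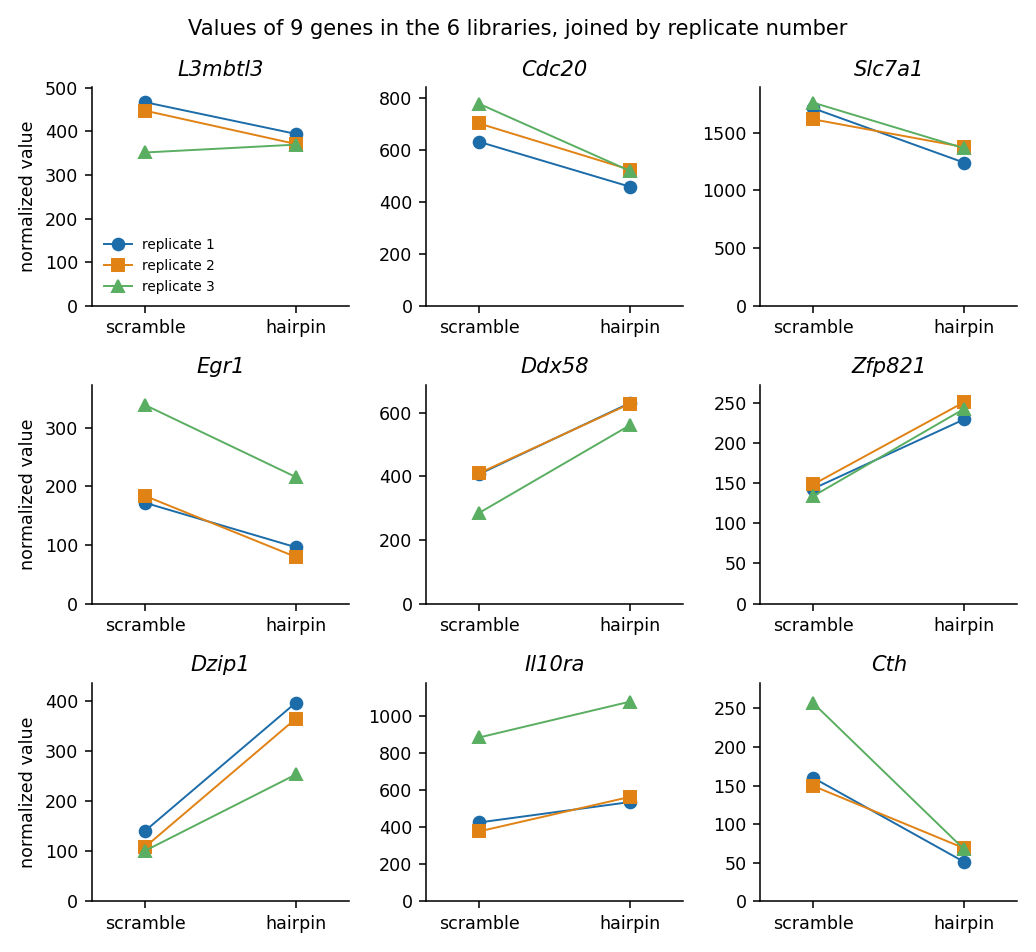
Normalized values (y axis from 0) of 9 genes in the scramble and hairpin libraries, with lines joining libraries of the same replicate number. Cdc20, Slc7a1, Ddx58, Zfp821, Dzip1 and Cth separate the groups, Egr1 and Il10ra move alike in each pair while replicate 3 lies higher in both groups, and L3mbtl3 is lower in 2 pairs and higher in the third.

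Several housekeeping programmes had their lowest median in the replicate 3 pair. The 80 ribosomal protein genes had medians of 0.01, -0.02 and -0.29, the 22 genes of glycolysis 0.01, 0.05 and -0.28, and the 73 genes of oxidative phosphorylation -0.00, -0.02 and -0.21. The hypoxia response (21 genes) lay at -0.05, 0.07 and -0.22, translation factors (41) at -0.03, -0.05 and -0.26, and the replication histones (66) at 0.05, -0.14 and -0.32. The histones were thus lower in pair 2 as well, and 23 of the 41 translation factors were lower in every pair (56.1%, against 28.8% of all tested genes). Without scramble replicate 3 the median of each lay between -0.03 and 0.07. Rpl3, a protein of the large ribosomal subunit, shows the layout: 663, 680 and 810 with scramble and 665, 679 and 658 with the hairpin. Pgk1, an enzyme of glycolysis, stood at 1139, 1135 and 1533 against 1134, 1167 and 1164. The unpaired test called Ndufa5 and no other gene of these 6 lists; with scramble replicate 3 left out it also called 1 translation factor lower and 1 hypoxia gene higher. In the paired fit 6 translation factors (14.6%), 3 histones (4.55%) and 2 genes of oxidative phosphorylation (2.74%) fell. So did 2 genes of the hypoxia response (9.52%) and 1 of glycolysis (4.55%), where 8.71% of all tested genes fell. In that fit 1 hypoxia gene (4.76%) and 1 ribosomal protein gene, Rpl7l1 (1.25%), rose, against 13.5% of all.

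Ndufa5, a subunit of complex I, stood at 111, 111 and 134 with scramble and 69, 70 and 75 with the hairpin (log2 -0.73, limma adjusted p = 0.0392). It differed in every pair, unlike the list around it. Cox6a2, a subunit of cytochrome oxidase, stood at 231, 203 and 328 against 136, 122 and 183 (log2 -0.78, paired 0.000395, unpaired 0.0713).

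The interferon list moved upward in part. Of 49 listed genes 41 were tested, of which 4 rose in the unpaired test, 15 rose and 2 fell in the paired fit, and 24 did not pass there. The medians were 0.16, 0.13 and 0.23. Without scramble replicate 3 the list's median was 0.05, and 7 rose in the unpaired test. Ddx58, the RNA sensor RIG-I, stood at 407, 410 and 285 with scramble and 631, 629 and 562 with the hairpin. Adar, which edits double-stranded RNA, stood at 765, 724 and 554 against 977, 971 and 933 (log2 0.51, limma adjusted p = 0.0492). Parp12 and Dtx3l, both linked to ADP-ribosylation, were the other unpaired calls (log2 0.58 and 0.35).

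The list did not move as one. Of the 41 members 5 were lower in every pair: Oasl1 and Usp18, which damps the receptor, fell in the paired fit (log2 -0.87 and -0.29), and Ifit1, Rsad2 and Ifitm2 did not pass. Usp18 stood at 527, 495 and 514 against 384, 373 and 513, so its replicate 3 pair did not differ.

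Genes named Zfp, most of which encode DNA-binding zinc finger proteins, were the largest list. Of 360 listed, 280 were tested, and 16 rose and 0 fell in the unpaired test, 88 rose and 11 fell in the paired fit. The medians were 0.13, 0.11 and 0.37. With scramble replicate 3 left out, the median was 0.11, with 29 up and 3 down. Zfp821 stood at 143, 149 and 134 with scramble and 230, 251 and 243 with the hairpin (log2 0.76, limma adjusted p = 0.0306). Zfp839 (log2 0.64) and Zfp704 (0.69) also separated the groups. Among those that fell in the paired fit were Zfp367 and Zfp598, with log2 fold changes of -0.41 and -0.30. These genes share similar repeats, with the counting of reads that match several of them not given in the sources used here.

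Enzymes that build sugar chains in the Golgi moved both ways, more often up. Of 82 listed 61 were tested, 7 rose and 2 fell in the unpaired test, and 25 rose and 5 fell in the paired fit, with medians of 0.11, 0.14 and 0.31. Galnt10 and Galnt3 both start O-linked chains, and they went in opposite directions. Galnt10 stood at 37.4, 23 and 20.9 with scramble and 73, 75.6 and 75.8 with the hairpin, a log2 fold change of 1.48 (limma adjusted p = 0.0343). For Galnt3 the values were 328, 301 and 302 against 159, 160 and 182. Man1a2, which trims mannose from N-linked chains, rose evenly (log2 0.26, 0.29 and 0.32 in the pairs), and B4galt3, a galactosyltransferase, fell (log2 -0.30). When scramble replicate 3 was left out, 15 of the list rose and 2 fell.

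Cilium genes had medians of 0.15, 0.12 and 0.38 over 45 tested members. In the unpaired test 1 rose, in the paired fit 14, and 0 fell in either. With scramble replicate 3 left out, 2 rose in the unpaired test and the median went from 0.23 to 0.10. Dzip1, a protein at the base of the cilium, stood at 140, 108 and 101 with scramble and 397, 365 and 253 with the hairpin (log2 1.52, limma adjusted p = 0.0306). Ttc8, part of the complex that carries cargo into cilia, stood at 39, 38 and 20 against 81, 70 and 64 (paired 0.00249, unpaired 0.0579). Lysosomal genes had medians of 0.03, 0.05 and 0.04 over 45 tested, with 2 up in the unpaired test (4.44%, against 2.21% of all genes). When scramble replicate 3 was left out, 7 rose. In the paired fit 12 rose (26.7%, against 13.5%) and 2 fell (4.44%, against 8.71%). Ctso, a cathepsin, stood at 157, 169 and 117 against 221, 252 and 214 (log2 0.65, paired limma adjusted p = 0.00202, unpaired 0.0553), and Glb1, a galactosidase, rose in the paired fit too (log2 0.30).

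**Figure D4:**
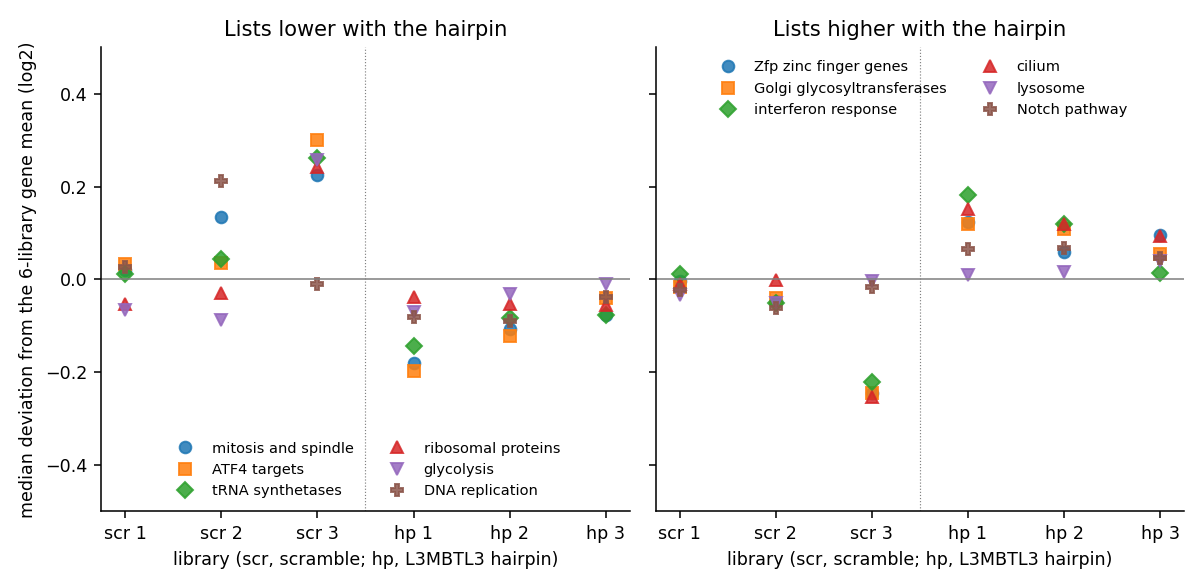
Median deviation of each list's tested genes from their mean over the 6 libraries (y axis, log2), in each scramble (scr) and hairpin (hp) library. Lists are split by the sign of their median log2 fold change over all libraries, below 0 (left) or above 0 (right). Without scramble replicate 3 that median was -0.02 for ribosomal protein genes and 0.04 for glycolysis genes. In scramble replicate 3 ribosomal protein, glycolysis and ATF4 genes lie at 0.24, 0.26 and 0.30 and Zfp, Golgi and cilium genes each at -0.25, while scramble replicates 1 and 2 lie closer to 0 in most lists.

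Among 40 tested genes of T cell receptor signalling 1 rose in the unpaired test (3 with scramble replicate 3 left out), which is 2.5% against 2.21% of all tested genes. In the paired fit 8 rose (20%, against 13.5% of all) and 2 fell (5%, against 8.71%). Cd4, the coreceptor of helper T cells, stood at 14, 11.5 and 9.83 with scramble and 56.7, 44.2 and 41.3 with the hairpin, low in every library. The adaptors Grap2 and Fyb rose in the paired fit (log2 0.51 and 0.66), and Cbl, a ubiquitin ligase that damps the receptor, fell there (log2 -0.30).

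Of 38 tested transcription factors of T cells, 3 rose in the unpaired test (6 rose and 1 fell with scramble replicate 3 left out), and 11 rose (28.9%, against 13.5% of all tested genes) and 4 fell (10.5%, against 8.71%) in the paired fit. Runx1 stood at 524, 512 and 495 against 658, 622 and 632, and Tbx21, the factor T-bet of the Th1 lineage, at 76, 82 and 73 against 111, 115 and 124. Zeb2, known for terminal effector cells, stood at 346, 268 and 205 against 501, 506 and 388 (paired limma adjusted p = 0.000253, unpaired 0.0571). Tcf7, a factor of early and resting T cells, fell in the paired fit (909, 866 and 840 against 813, 695 and 715, paired 0.0109), as did Nfil3, which binds promoters of clock and cytokine genes. Ikzf3, the lymphoid factor Aiolos, had the widest replicate 3 pair of these, at 801, 733 and 436 against 1233, 1111 and 1138 (paired 0.000542, unpaired 0.0524).

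Of 30 tested cytokine receptor and signalling genes 1 rose in the unpaired test and 5 in the paired fit, and 0 fell. These shares of 3.33% and 16.7% were near the 2.21% and 13.5% of all tested genes. Il10ra stood at 426, 378 and 885 with scramble and 536, 564 and 1079 with the hairpin, so that replicate 3 was high in both groups and each pair rose (paired limma adjusted p = 0.0019, unpaired 0.485). Il6ra stood at 44, 39 and 22 against 111, 96 and 92. Among 14 tested homing receptors, 4 rose (28.6%, against 13.5% of all tested genes) and 3 fell (21.4%, against 8.71%) in the paired fit. In the unpaired test with scramble replicate 3 left out, 2 rose and 2 fell. Ccr6 stood at 95.4, 82.4 and 6.15 against 271, 211 and 81.6, low in replicate 3 of both groups (paired 0.00114, unpaired 0.197). Ccr7, which guides cells to lymph nodes, stood at 30.9, 24 and 51.6 against 6.73, 6.87 and 5.76, and was the only unpaired call of the list when all libraries were used.

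Of 41 listed activation genes 19 were tested, and 3 fell in the unpaired test (15.8%, against 1.11% of all tested genes). With scramble replicate 3 left out, 3 fell and 1 rose. In the paired fit 6 fell (31.6%, against 8.71% of all) and 4 rose (21.1%, against 13.5%). Cd69, which keeps activated cells in tissue, stood at 580, 613 and 634 with scramble and 408, 445 and 521 with the hairpin (log2 -0.42, limma adjusted p = 0.0497). The granzyme gene Gzmb stood at 187, 174 and 191 against 122, 94 and 149 (paired 0.00544, unpaired 0.0717). Cell death genes were mixed as well, with 7 of 33 up (21.2%) and 5 down (15.2%) in the paired fit. The shares of all tested genes were 13.5% and 8.71%. Without pairing (limma) 0 cell death genes were called, or 2 up and 2 down with scramble replicate 3 left out. Bcl2, which blocks mitochondrial death, stood at 1439, 1397 and 1353 against 1033, 920 and 1231 (paired 0.00315), whereas Bcl2l1, of the same function, and Apaf1, which assembles the caspase platform, rose there.

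The circadian clock list held 3 unpaired decreases among 20 tested genes (15%, against 1.11% of all tested genes). With scramble replicate 3 left out, it held 4 decreases and 1 increase. In the paired fit 9 of the list fell (45%, against 8.71% of all) and 3 rose (15%, against 13.5%). Cry2, a repressor of the clock, stood at 547, 512 and 482 with scramble and 383, 351 and 324 with the hairpin, with nearly equal pair differences of -0.52, -0.54 and -0.57 (limma adjusted p = 0.0314). Cry1, its paralog, stood at 415, 432 and 428 against 361, 331 and 345, without overlap. Arntl, an activator of the clock, rose in the paired fit (log2 0.25, paired 0.0166).

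Among chromatin genes, Mbtd1, another MBT domain protein, was very even between replicates, at 618, 613 and 615 with scramble and 462, 441 and 496 with the hairpin (log2 -0.40, limma adjusted p = 0.0318). Hells, a remodeller needed for DNA methylation, stood at 755, 787 and 793 against 615, 649 and 640. Smarcd1, a subunit of the SWI/SNF remodeller, rose at 387, 378 and 409 against 471, 484 and 475 (log2 0.28). These were the only unpaired calls of their lists. Of 29 MBT domain and Polycomb genes 3.45% fell, and of 62 acetylation and remodelling genes 1.61% rose and 1.61% fell. Over all tested genes 2.21% rose and 1.11% fell. In the paired fit 6.9% of the 29 rose and 10.3% fell, and 6.45% and 12.9% of the 62, against 13.5% and 8.71% of all. With scramble replicate 3 left out, 1 rose and 3 fell of the 29, and 2 and 4 of the 62. Of 57 tested enzymes of histone methylation 0 passed the unpaired limma test (2 fell with scramble replicate 3 left out). In the paired fit 3 rose (5.26%, against 13.5% of all tested genes) and 8 fell (14%, against 8.71%). The H3 methyltransferase gene Dot1l was among those that fell (log2 -0.35).

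Notch genes are given only for scale. Of 31 tested pathway genes 3 rose in the unpaired test (6 with scramble replicate 3 left out) and 11 in the paired fit, and 0 fell. The shares that rose were 9.68% and 35.5%, against 2.21% and 13.5% of all tested genes. The median difference was 0.10, 0.16 and 0.14 in the pairs.

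Single genes were also ranked by size of change. The 12 genes in each direction with the largest paired fold change were taken among called genes whose groups did not overlap. Their mean had to reach 100 in either group, and symbols of predicted or clone gene models were left out. They were led by B3galt5, at 54.3, 37.4 and 27 with scramble and 258, 197 and 102 with the hairpin, and by Cth. Less abundant genes fell outside this ranking, among them Ccr7, with a larger decrease (log2 -2.22). Abat, which breaks down the transmitter GABA, stood at 93, 93 and 44 against 351, 265 and 203 (log2 1.86, limma adjusted p = 0.0343). Sepp1, the plasma carrier of selenium, had steady scramble values of 70, 69 and 65 and rose to 200, 192 and 150. Tbc1d4, which holds glucose transporters inside the cell, stood at 51, 51 and 34 against 139, 121 and 108. Ncald, a calcium sensor, and Amica1, an adhesion molecule, rose only in the paired fit, and scramble replicate 3 was their lowest library (15 and 65, against 78 or more and 213 or more in the other scramble libraries).

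Muc13, a membrane mucin, stood at 368, 405 and 344 with scramble and 212, 181 and 241 with the hairpin (log2 -0.82, limma adjusted p = 0.0314). Frat2, which favours Wnt signalling, stood at 122, 160 and 189 against 57, 69 and 89, with pair differences of -1.09, -1.21 and -1.08. Clec4d, a lectin receptor, and Lipg, a lipase, fell less in the replicate 3 pair than in the others (-0.62 against -1.06 and -0.92 for Clec4d, and -0.37 against -1.14 and -1.13 for Lipg). Plekha1, which binds membrane lipids, passed only with pairing (610, 560 and 905 against 350, 378 and 464).

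Abundant transcripts, whose mean reached 2000 with scramble or hairpin, changed less than 1.5-fold where the paired fit called them. Tfrc, the receptor for iron-loaded transferrin, stood at 2176, 2211 and 2667 against 1820, 1732 and 1982 (log2 -0.35, paired limma adjusted p = 0.00141, unpaired 0.0711). Apc, the scaffold that holds down beta-catenin, stood at 1693, 1586 and 1588 against 2106, 2021 and 2132 (log2 0.36, adjusted p = 0.0319). Bcl11b, a factor of T cell identity, stood at 1688, 1731 and 1147 against 2243, 2099 and 1912 (paired 0.00139, unpaired 0.103). Celsr1, an adhesion receptor, rose by 0.32, 0.31 and 0.32 on the log2 scale in the pairs.

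Genes whose pairs disagreed were named by a rule of size, as a description. Agk, a mitochondrial lipid kinase, was higher with the hairpin in the replicate 3 pair only, at 104, 113 and 55 with scramble and 101, 98 and 117 with the hairpin. Fam206a (311, 305 and 167 against 306, 289 and 301) and Oxsm showed the same layout, a low scramble replicate 3 and the other 5 libraries alike. Nfkbiz, an NF-kB cofactor, was lower in that pair only (185, 190 and 285 against 194, 196 and 178). Timeless, a replication fork protein, was lower in the replicate 2 pair only, at 475, 577 and 349 against 485, 423 and 488. In the replicate 1 pair alone Bmf, a trigger of cell death, was lower (152, 86 and 96 against 110, 99 and 115). None of these passed in either limma fit.

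Calls varied with the length of transcripts. In classes of equal size by transcript length, which could be taken for 96% of tested genes from a GRCm38 annotation, the share that rose in the paired fit was 4.18% in the shortest class and 23% in the longest. The share that fell went from 5.08% to 8.85%. The median log2 fold change went from -0.06 to 0.03, and in the replicate 3 pair from -0.12 to 0.06. By GC content, 13% fell in the class of lowest GC and 6.2% in that of the highest. With each library's trend on both removed, over the 11124 genes with a length and GC value, the paired fit called 52 mitosis and 22 ATF4 genes lower (54 and 22 before) and 84 Zfp genes higher (88 before). Replication genes went from 20 to 23 lower, Golgi enzymes from 25 to 23 higher and cilium genes from 14 to 12 higher. The lysosomal list had 12 higher in both fits, with its median going from 0.05 to 0.01. These are counts, which do not say whether the same genes were called.

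Markers of T cells were present. Of 12 T cell markers 11 were tested, with summed values of 6556 to 7311 in scramble and 7429 to 8186 in hairpin libraries. Of 10 B cell markers 0 passed the filter, with sums of 3.84 to 14.7 over the 6 libraries, and Cd79b, Pax5, Ebf1 and Blk were at 0 in all of them. Of 14 myeloid markers 2 were tested, Cd68 and Fcgr3, and their list summed to 380 to 412 in scramble and 256 to 325 in hairpin libraries, with Cd14, S100a9 and Cebpa at 0 in all. Of 11 NK markers only Tbx21 was tested, which T cells also express, and of 14 markers of stroma, epithelium and endothelium only Pecam1. Of 10 erythroid and megakaryocyte markers Hba-a1 and Itga2b were tested, and the list summed to 43 to 73.6. In such bulk samples fewer cells of a state and less RNA per cell cannot be told apart.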

How the data were processed

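The authors deposited 1 table of normalized values for the knockdown, a signal per gene. The tools named in the submitters' processing notes are TopHat2 2.1.1 and DESeq2 1.24.0, with the build mm9; counter, annotation, strand handling: not given in the sources used here. Within each library 100% of the values were whole multiples, within 0.1 read, of the value of 1 read, so reads were recovered and used for edgeR 4.0.16 and DESeq2 1.42.0 as alternatives. A table of a separate rescue experiment was not used here. Tests were 2-sided limma-trend fits (limma 3.58.1 in R 4.3.3) of log2(value + 1) on group alone, and a call needs an adjusted p below 0.05 (Benjamini-Hochberg, every tested gene included). Adjusted p-values in the text are from limma, "paired" meaning with the replicate block. Fold changes on this scale understate changes of low genes. Exact permutation of 3 against 3 libraries cannot give a p below 0.10.

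Libraries of equal replicate number deviated together from their group means (correlations of 0.39, 0.24 and 0.54 across genes), which was taken as pairing. Scramble replicate 2 correlated more with hairpin replicate 1 (0.33) than with hairpin replicate 2 (0.24). The pairing of replicates 1 and 2 is therefore uncertain, and the paired counts rest on it. Deviations from a group mean are tied to each other, so these correlations are not independent. The labels do not say that numbers mark a shared day or culture. Nor do they say that replicates were separate cultures, so p-values measure a spread that may be technical. Libraries of a group differed from each other by more than sampling noise (chi-square over its degrees of freedom 1.25 to 6.63). The gene lists and comparison were chosen with earlier results of these data known. Named genes are up to 4 list members per direction by the paired fit, called members preferred, and genome-wide the largest, the most abundant and the pair-discordant changes. Promoters are from a RefSeq table (GRCm38.p6), matched by symbol or synonym for 9120 tested genes (78.7%); motif shares were read only for lists with at least 80% matched. 56 tested genes held the same values as another. Results for a few genes are not reported here.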

Additional observations from a re-analysis of the deposited data

How the results depend on the processing

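The unpaired counts, 256 up and 129 down with 66.5% of calls rising, moved with pairing, scaling and single libraries. With the replicate block 1566 rose and 1009 fell (60.8% rising), with the replicate block and the GC and length trends removed 1353 and 1022 (57%), and in edgeR with the replicate block 1550 and 1040 (59.8%). Quantile scaling gave 533 and 376 (58.6%), DESeq2 456 and 199, edgeR without the block 320 and 152, and no filter on low values 179 and 78. Leaving out 1 library gave 0 to 646 up and 0 to 383 down, with 40% to 70.8% rising. The replicate block without 1 pair gave 1102, 1505 and 1713 up and 433, 803 and 1458 down (without pair 1, 2 and 3), with 54% to 71.8% rising. In these last fits Timeless turned to -0.21 without replicate 3, against 0.02 with all libraries. A design of 3 libraries per group limits what small changes can show.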
